A study of Rattus norvegicus with 6 samples.

Results

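The genes described here are those cullin, BTB-Kelch (Klhl, Kbtbd and Keap1), Kctd and F-box (Fbxw, Btrc, Fbxl and Fbxo) genes that are named by symbol on the array. They were chosen as the probe sets for which the platform annotation gives exactly 1 gene symbol that starts with Cul and a digit from 1 to 9, Klhl, Kbtbd, Kctd, Fbxl, Fbxo or Fbxw, or that is Btrc or Keap1. This gave 173 probe sets for 117 of 14217 named genes: 8 cullins, 39 BTB-Kelch genes, 16 Kctd genes, 9 F-box genes with WD40 repeats, 14 with leucine-rich repeats and 31 with other domains. The rule reads symbols alone and no signal.

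Cullin-RING ligases are ubiquitin ligases built on a cullin scaffold, which holds a RING protein at one end and a substrate adaptor at the other. Cul1 takes F-box proteins through Skp1, Cul3 takes proteins with a BTB domain such as the BTB-Kelch and many of the Kctd proteins, and Cul4a and Cul4b take their receptors through Ddb1. The adaptor selects the protein that is ubiquitinated: Btrc selects beta-catenin, and Keap1 selects the antioxidant transcription factor NRF2, the product of Nfe2l2. Klhl12 acts with Cul3 on Sec31, a coat protein of the vesicles that carry procollagen out of the endoplasmic reticulum, a role shown in mouse cells and of interest in a bone matrix-producing line.

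RNA came from 6 cultures of UMR106-01, a rat osteosarcoma line with traits of the bone-forming osteoblast, with 1 Affymetrix array for each culture. Of these, 3 received AEBSF, an inhibitor of serine proteases, at 400 µM, and 3 were mineralizing control cultures without it. Both groups were grown in 10% fetal bovine serum, were re-fed 64 h after plating with 6.5 mM beta-glycerol phosphate, a phosphate donor for mineral, and were lysed 12 h later, at 76 h. All are cultures of a single tumour line, and nothing in the labels says whether they came from separate passages. The p-values thus set the difference between groups against the spread within groups of these 6 cultures alone.

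Values are MAS5 signals, 1 per probe set and array, on a linear scale on which each array had been scaled to the same trimmed mean. Correlations between arrays over the tested probe sets were 0.9855 to 0.9900 within groups and 0.9791 to 0.9835 between groups. Of 12 osteoblast markers 9 were measured and 8 lay above the signal filter described next, with a summed signal of 26650 to 27822 with AEBSF and 29319 to 30926 in mineralizing cultures. Of this list Col1a1, Col1a2 and Phex fell (log2 fold changes of -0.67, -1.13 and -0.73), Ibsp, Pth1r, Alpl, Sparc and Spp1 did not pass (log2 fold changes between -0.17 and 0.05), and Bglap, the osteocalcin gene, lay below the filter. The remaining 3 listed markers were not analysed here. Of marker lists for other cell types, Csf1r (macrophages), Des (muscle), Krt8 (epithelium), Lpl and Pparg (adipocytes) lay above the filter and did not pass. The other measured ones lay below it. They include Ptprc and Cd68 of macrophages, Myod1 of muscle, Pecam1 of endothelium, Epcam of epithelium and Adipoq of adipocytes. Summed signals of those lists with AEBSF and in mineralizing cultures were 127 to 144 and 143 to 220 for macrophages, with 1 of 5 markers above the filter, 90.8 to 211 and 163 to 185 for muscle (1 of 5), 57.7 to 119 and 47.0 to 75.5 for endothelium (0 of 4), 141 to 149 and 136 to 200 for epithelium (1 of 5), and 391 to 506 and 486 to 505 for adipocytes (2 of 5). The part of these genes in the results was not tested.

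Probe sets entered the test when their log2 signal, averaged over the 6 arrays, exceeded the 40th percentile (a signal of 67.2), and the probe set of highest mean signal stands for its gene. By this filter 89 of the 117 genes were tested and 28 were not. The untested ones were Cul9; the BTB-Kelch genes Kbtbd6, Klhl3, Klhl4, Klhl6, Klhl10, Klhl11, Klhl14, Klhl29, Klhl31, Klhl33, Klhl35, Klhl36, Klhl38 and Klhl41; Kctd4, Kctd11 and Kctd16; and the F-box genes Fbxw17, Fbxl7, Fbxl17, Fbxl22, Fbxo2, Fbxo16, Fbxo17, Fbxo36, Fbxo39 and Fbxo41. Their mean signals ran from 3.68 to 64.6 with AEBSF and from 0.692 to 80.5 in mineralizing cultures.

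With AEBSF, 8 of the 89 tested genes rose and 5 fell at a limma adjusted p under 0.05, taken over all tested probe sets. The rises were the scaffold Cul1, the BTB-Kelch genes Klhl21, Klhl22, Klhl23 and Klhl42, Kctd20, Fbxl20 and Fbxo7, and the falls were Klhl24, Kctd6, Kctd18, Fbxo8 and Fbxo25. Changes were modest: 0 of the 89 genes differed by 2-fold or more, and the genes that passed had a median change of 1.32-fold, with Klhl21 (1.73-fold higher) and Kctd18 (1.71-fold lower) at the ends. The 13 calls are 14.6% of the tested genes, against 16.3% of all 9864 tested genes on the array, of which 7.09% rose and 9.22% fell, so the share is near that of the array. The median log2 fold change over the 89 genes was 0.030, against 0.002 over all tested genes.

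**Figure D1:**
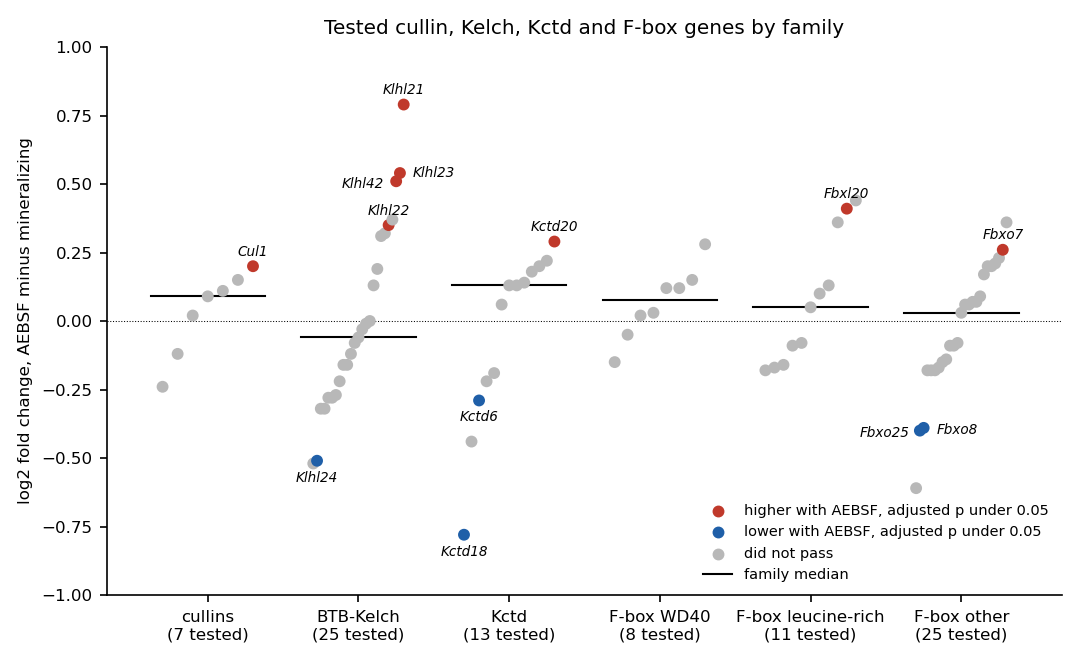
Each point is the log2 fold change (AEBSF minus mineralizing) of 1 of the 89 tested genes, ordered by value within its family, with the family median as a line. The 8 genes that rose (red) and 5 that fell (blue) lie within families whose other points (grey) scatter on both sides of 0, and no point reaches 1 or -1.

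The groups did not overlap for 36 of the 89 genes, 20 with all AEBSF arrays above and 16 with all below; for all tested genes that share was 36.1%. All 13 genes that passed were among them. Within groups the median coefficient of variation of the tested genes was 8.10% with AEBSF and 5.91% in mineralizing cultures. Of the 76 genes that did not pass, 25 had a 95% interval of the difference that lay inside 1.25-fold in both directions, and 65 had one inside 1.5-fold; for the remaining 11 a 1.5-fold difference was not bounded by these arrays. The unadjusted limma p was under 0.05 for 28 of the 89 genes, against 3142 of all 9864 tested genes. Of the 28, 15 were among the 76 that did not pass.

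The calls moved with single arrays and with the scaling. Dropping mineralizing array 1, 2 or 3 brought the count of 13 to 5, 6 and 8. Scaling each array to its hybridization controls, RNAs spiked in before hybridization, placed the all-gene median at -0.144. Under that scaling 2 of the 8 rises, Klhl21 and Klhl23, and all 5 falls still passed, and Klhl7, Klhl8, Klhl13, Fbxo32 and Fbxo33 became calls of lower signal. With a constant in place of a trended variance prior 5 of the 89 genes passed, namely Klhl21, Klhl23, Klhl42, Fbxo8 and Fbxo25. Each rise or fall is thus one against the bulk of the array, and in whole cultures fewer cells of a kind and less RNA per cell cannot be told apart. The calls of Klhl21, Klhl23, Fbxo8 and Fbxo25 were kept under each alternative setting in which they were tested and without any 1 array.

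**Figure D2:**
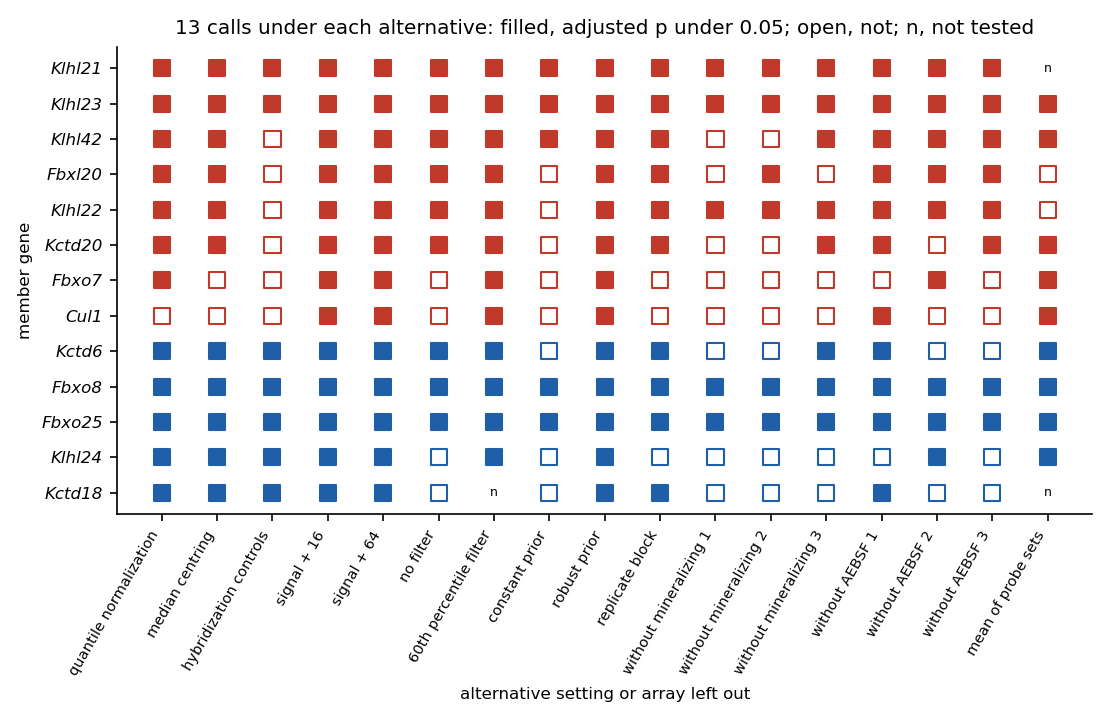
Each square is 1 of the 13 genes (rows) under 1 alternative setting or with 1 array left out (columns), red for a higher and blue for a lower signal with AEBSF; filled squares had a limma adjusted p under 0.05, open ones did not, and n marks a gene not tested there. Klhl23, Fbxo8 and Fbxo25 are filled in every column, Klhl21 in each in which it was tested, and Cul1, Fbxo7, Klhl24 and Kctd18 are each open in 5 of the 6 leave-one-out columns.

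The bases just upstream of 3 of these 4 genes are given because their calls did not depend on any setting or array; a promoter of Fbxo25 is not printed. The sequences are the 250 bases before the gene's start from RefSeq, assembly GRCr8, written 5′ to 3′ on the gene's strand, with capitals for matches to the motifs named after them. The Klhl21 stretch lies at chr5:167797371-167797620 (plus strand), that of Klhl23 at chr3:74988528-74988777 (plus strand) and that of Fbxo8 at chr16:38721850-38722099 (minus strand).
Klhl21: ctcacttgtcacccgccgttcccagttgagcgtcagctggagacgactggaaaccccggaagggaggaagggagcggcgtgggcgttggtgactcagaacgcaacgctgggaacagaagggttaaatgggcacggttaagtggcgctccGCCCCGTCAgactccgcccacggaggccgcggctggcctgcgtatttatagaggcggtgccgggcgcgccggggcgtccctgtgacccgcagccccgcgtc
Klhl23: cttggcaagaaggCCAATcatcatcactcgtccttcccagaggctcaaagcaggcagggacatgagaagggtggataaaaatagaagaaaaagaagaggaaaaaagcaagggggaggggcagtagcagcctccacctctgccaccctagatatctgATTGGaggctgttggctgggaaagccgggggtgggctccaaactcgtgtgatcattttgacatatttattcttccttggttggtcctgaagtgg
Fbxo8: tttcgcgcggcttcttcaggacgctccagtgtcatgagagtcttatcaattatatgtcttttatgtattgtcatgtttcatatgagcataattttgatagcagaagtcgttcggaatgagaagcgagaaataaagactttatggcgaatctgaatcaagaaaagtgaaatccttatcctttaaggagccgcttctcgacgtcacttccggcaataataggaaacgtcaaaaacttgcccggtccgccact

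Both strands were searched for 5 motifs: the CCAAT box (CCAAT), the E-box CACGTG, the cAMP response element TGACGTCA, the core of the antioxidant response element (TGACNNNGC), and the core of the element bound by C/EBP and ATF factors (TGATGNAA). The stretch before Klhl21 held 1 antioxidant response core, on the opposite strand, and that before Klhl23 held 2 CCAAT boxes, 1 on each strand, while the Fbxo8 stretch held none of the 5. Among 27457 promoters of this length 34.3% held a CCAAT box and 10.2% an antioxidant response core, so such matches are common. Of 78 tested cullin, Kelch, Kctd and F-box genes with a promoter among these, 18 held a CCAAT box and 11 an antioxidant response core. GC content was 67.2% before Klhl21, 50.4% before Klhl23 and 41.6% before Fbxo8. Of the 8 genes that rose, 2 had the antioxidant response core (Klhl21 and Fbxl20) and 2 the CCAAT box (Klhl23 and Fbxl20); of 4 genes that fell with a promoter in the table, 0 had that core and 2 had a CCAAT box (Klhl24 and Kctd18). The E-box was held by 5.79% of all promoters and by Klhl22 among the 12 called genes, and the cAMP and C/EBP-ATF motifs, in 1.7% and 3.27% of all promoters, by 0 of the 12.

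Of the 7 tested cullin scaffolds, Cul1 rose and the other 6 did not pass (14.3% called, against 16.3% of all tested genes). Cul1, the scaffold of the F-box ligases, had signals of 3969, 4193 and 4395 with AEBSF, against 3430, 3836 and 3659 in mineralizing cultures. The lowest AEBSF array lay just above the highest mineralizing one, and the rise was 1.15-fold (log2 fold change 0.20 ± 0.06 SE, adjusted p 0.0470 in limma). This call was lost on dropping mineralizing array 1, 2 or 3 or AEBSF array 2 or 3 (limma adjusted p = 0.173, 0.0652, 0.0941, 0.0909 and 0.121) and after quantile normalization, median centring or hybridization scaling (0.0514, 0.0932 and 0.735). It was also lost with no filter, a constant prior or the replicate number as a block (limma adjusted p = 0.0886, 0.167 and 0.0612).

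Cul3, the scaffold of the BTB adaptors, had 6196, 6369 and 6385 with AEBSF, against 5720, 5980 and 6060 in mineralizing cultures. The groups did not overlap, yet the difference of 1.07-fold did not pass (log2 fold change 0.09, 95% interval -0.01 to 0.20, limma adjusted p = 0.242), and the other 2 tested probe sets of Cul3 had log2 fold changes of 0.02 and -0.12. Cul5, which serves the SOCS-box receptors, averaged 2097 ± 170 with AEBSF and 2273 ± 49.8 in mineralizing cultures (SD, n = 3 each here and below), with an interval of -0.26 to 0.02. Cul2, which serves the von Hippel-Lindau protein, stood at 718 ± 35.6 and 708 ± 24.1 in AEBSF and mineralizing cultures, and its interval of -0.15 to 0.18 bounds the difference closely. Cul7, the partner of Fbxw8, stood at 536 ± 36.2 with AEBSF and 484 ± 33.3 without (interval -0.06 to 0.35).

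The scaffolds of the Ddb1-linked ligases were the least precisely measured. Cul4a had 1399, 1030 and 1763 with AEBSF, against 1160, 1711 and 1013 in mineralizing cultures, so arrays of the same group differed more than the group means did (log2 interval -0.31 to 0.53). Cul4b averaged 762 ± 167 with AEBSF and 894 ± 138 in mineralizing cultures (log2 fold change -0.24, limma adjusted p = 0.318). A second probe set of Cul4b read 423, 465 and 514 with AEBSF, against 580, 542 and 566 in mineralizing cultures, a difference of -0.27 that also missed the threshold (limma adjusted p = 0.0793) although its groups did not overlap. Cul9, a p53-binding cullin known from human cells, was listed at 28.6 ± 21.3 and 45.0 ± 28.6 in AEBSF and mineralizing cultures and was not tested.

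**Figure D3:**
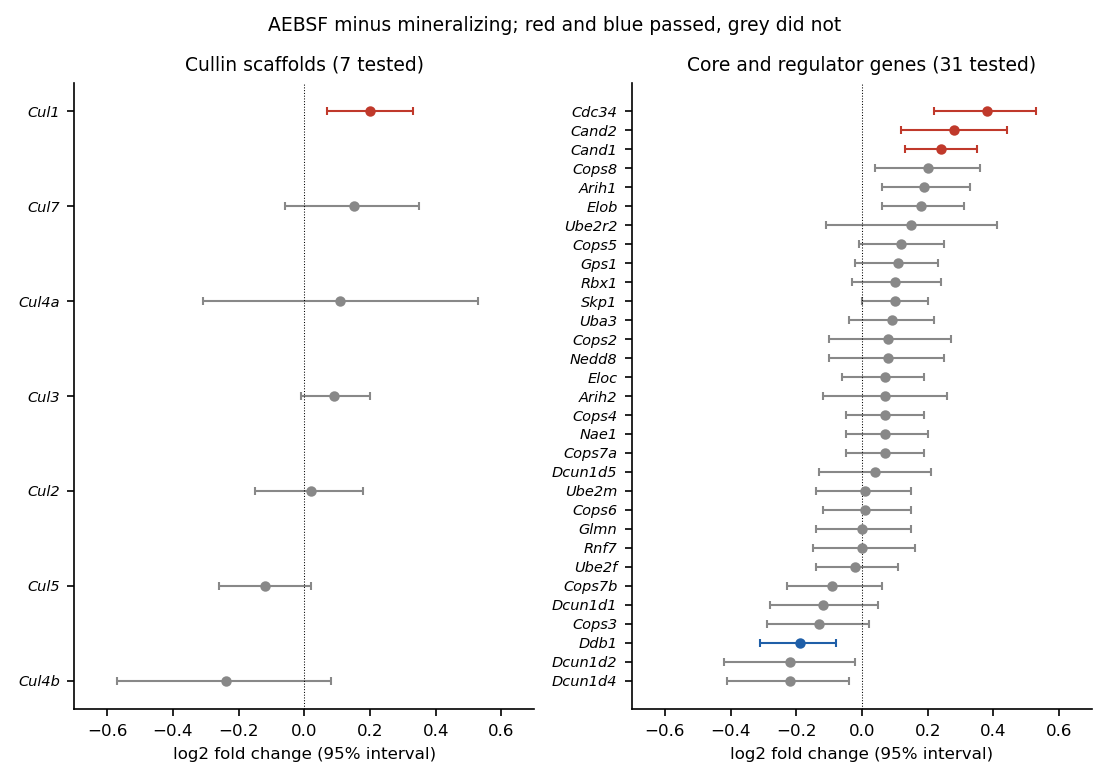
Points are log2 fold changes (AEBSF minus mineralizing) with 95% intervals for the 7 tested cullins (left) and the 31 tested core and regulator genes described below (right); red rose, blue fell and grey did not pass. Cul1 at 0.20 is the cullin that passed, Cul4a has the widest cullin interval, and Cdc34, Cand2, Cand1 and Ddb1 passed among the regulators.

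Among the 25 tested BTB-Kelch genes 4 rose, 1 fell and 20 did not pass (20.0% called, against 16.3% of all tested genes). Over all tested genes 7.09% rose and 9.22% fell. The family median was -0.056. Klhl21, an adaptor that in human cells brings Cul3 to Aurora B kinase in mitosis, read 383, 287 and 311 with AEBSF, against 207, 206 and 155 in mineralizing cultures. All AEBSF arrays lay well above the mineralizing ones, and the rise was 1.73-fold (log2 fold change 0.79 ± 0.16 SE, adjusted p 0.00781 in limma); its second probe set was below the filter. Klhl23 read 661, 591 and 607 with AEBSF, against 403, 449 and 428 in mineralizing cultures. It rose 1.45-fold (0.54 ± 0.09 SE, adjusted p 0.00297 in limma), and its 2 other tested probe sets were higher by 0.29 and 0.21 and did not pass.

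Klhl22, an adaptor for Polo-like kinase 1 in human cells, was measured by 4 tested probe sets, all with higher means with AEBSF, of which 2 passed. The one that stands for the gene read 1999, 1798 and 1765 with AEBSF, against 1501, 1422 and 1429 in mineralizing cultures (1.28-fold; log2 fold change 0.35 ± 0.07 SE, adjusted p 0.00527 in limma). The other that passed read 1138, 1220 and 1003 with AEBSF, against 957, 767 and 734 in mineralizing cultures (0.46, limma adjusted p = 0.0155). In neither probe set did the groups overlap, while the 2 dimmer ones, at 0.23 and 0.28, had overlapping groups. Averaging all 4 probe sets gave 0.33 and an adjusted p of 0.0628 in limma.

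Klhl42, which in human cells acts with Cul3 on the microtubule-severing enzyme katanin, read 311, 374 and 362 with AEBSF, against 239, 243 and 250 in mineralizing cultures. The mineralizing arrays were tightly grouped and all lower, and the rise was 1.43-fold (log2 fold change 0.51 ± 0.12 SE, adjusted p 0.0154 in limma). It was lost on dropping mineralizing array 1 or 2 (limma adjusted p = 0.0566 and 0.0509) and with hybridization scaling (0.107).

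Klhl24, a BTB-Kelch protein that in human skin controls the level of keratin 14, was the member of this family that fell. Its 3 probe sets had log2 fold changes of -0.51, -0.48 and -0.44, and 2 of them passed. The probe set that stands for the gene read 315, 495 and 388 with AEBSF, against 634, 548 and 499 in mineralizing cultures (1.42-fold lower; log2 fold change -0.51 ± 0.15 SE, adjusted p 0.0440 in limma). AEBSF culture 2 came close to the lowest mineralizing array, and AEBSF culture 1 was the lowest of all. The call was lost on dropping mineralizing array 1, 2 or 3 or AEBSF array 1 or 3 (limma adjusted p = 0.161, 0.0966, 0.0544, 0.135 and 0.0866). No filter, a constant prior or the replicate number as a block also removed it (limma adjusted p = 0.0863, 0.140 and 0.0588).

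Klhl8 shows a difference between probe sets. The one with the higher signal read 1362, 1359 and 1452 with AEBSF, against 1595, 1470 and 1592 in mineralizing cultures, and did not pass (log2 fold change -0.16, limma adjusted p = 0.121). The other read 451, 389 and 592 with AEBSF, against 671, 630 and 619 in mineralizing cultures, and fell (-0.44, limma adjusted p = 0.0436). In both, all AEBSF arrays were below all mineralizing ones, and the mean of the 2 probe sets passed (-0.30, limma adjusted p = 0.0405).

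Keap1, the sensor that holds NRF2 for Cul3, did not pass. It read 775, 804 and 756 with AEBSF, against 683, 706 and 505 in mineralizing cultures, groups that did not overlap (1.25-fold; log2 fold change 0.32, 95% interval 0.07 to 0.57, limma adjusted p = 0.0898). Its second probe set gave 0.33 (limma adjusted p = 0.166), and mineralizing culture 3 was the lowest array in the first. Nfe2l2 stood at 2268 ± 164 with AEBSF and 2382 ± 136 in mineralizing cultures (-0.07, limma adjusted p = 0.528). Klhl12, the Sec31 adaptor, read 1882, 1800 and 2004 with AEBSF, against 1614, 1749 and 1631 in mineralizing cultures. Its arrays separated by group, but the difference of 1.14-fold missed the threshold (log2 fold change 0.19, limma adjusted p = 0.0719).

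Klhl9 and Klhl13 act together with Cul3 on Aurora B in human cells. Klhl9 averaged 2571 ± 263 with AEBSF and 2563 ± 79.4 in mineralizing cultures, a difference of 0.00 on the log2 scale with an interval of -0.16 to 0.16. Klhl13, named after its values were seen, had 1023, 1104 and 1310 with AEBSF, against 1444, 1333 and 1356 in mineralizing cultures, all lower, and narrowly missed the threshold (-0.27, limma adjusted p = 0.0577). Klhl21, Klhl9 and Klhl13, which share this substrate, thus gave log2 fold changes of 0.79, 0.00 and -0.27.

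In the Kctd family, whose members carry a BTB-type domain without Kelch repeats, 1 of 13 tested genes rose and 2 fell. That is 23.1% called, against 16.3% of all tested genes, with a median of 0.130. Kctd20 read 1341, 1396 and 1221 with AEBSF, against 1064, 1068 and 1094 in mineralizing cultures. It rose 1.22-fold (log2 fold change 0.29 ± 0.07 SE, adjusted p 0.0165 in limma), a call lost on dropping mineralizing array 1 or 2 or AEBSF array 2 (0.0656, 0.0611 and 0.0502) and with hybridization scaling (0.407). Kctd6, which links the histone deacetylase Hdac1 to Cul3 in Hedgehog signalling, had 853, 784 and 786 with AEBSF, against 1069, 971 and 934 in mineralizing cultures. It fell 1.23-fold (-0.29 ± 0.08 SE, adjusted p 0.0264 in limma), with no overlap between groups, and the call was lost on dropping mineralizing array 1 or 2 or AEBSF array 2 or 3 (0.123, 0.0698, 0.0636 and 0.0553).

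Kctd18 gave the lowest fold change of the 89 genes, at a dim signal. It read 132, 73.6 and 97.3 with AEBSF, against 184, 171 and 151 in mineralizing cultures (1.71-fold lower; log2 fold change -0.78 ± 0.22 SE, adjusted p 0.0381 in limma). The AEBSF arrays were widely spread and all lower. Its second tested probe set had -0.38 and overlapping groups (limma adjusted p = 0.388), and the call was lost on dropping mineralizing array 1, 2 or 3 or AEBSF array 2 or 3 (0.130, 0.105, 0.0641, 0.0976 and 0.0739). No filter or a constant prior also removed it (limma adjusted p = 0.0859 and 0.0860).

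Of the other Kctd genes, Kctd5, a Cul3 adaptor for G protein beta-gamma subunits in human cells, averaged 2136 ± 193 with AEBSF and 1883 ± 110 in mineralizing cultures. It missed the threshold (log2 fold change 0.18, limma adjusted p = 0.136) and passed on dropping AEBSF array 2 (0.25, 0.0419). Kctd10, a Cul3 adaptor for the GTPase RhoB in human endothelium, stood at 1197 ± 18.1 and 1152 ± 37.4 in AEBSF and mineralizing cultures, with an interval of -0.08 to 0.19. Kctd15, an inhibitor of the AP-2 factor in the zebrafish neural crest, stood at 2180 ± 291 with AEBSF and 1983 ± 140 without (interval -0.06 to 0.33). Kctd9, named after its values were seen, had 938, 946 and 971 with AEBSF, against 788, 855 and 809 in mineralizing cultures, with no overlap, and lay just outside the threshold (0.22, limma adjusted p = 0.0529).

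**Figure D4:**
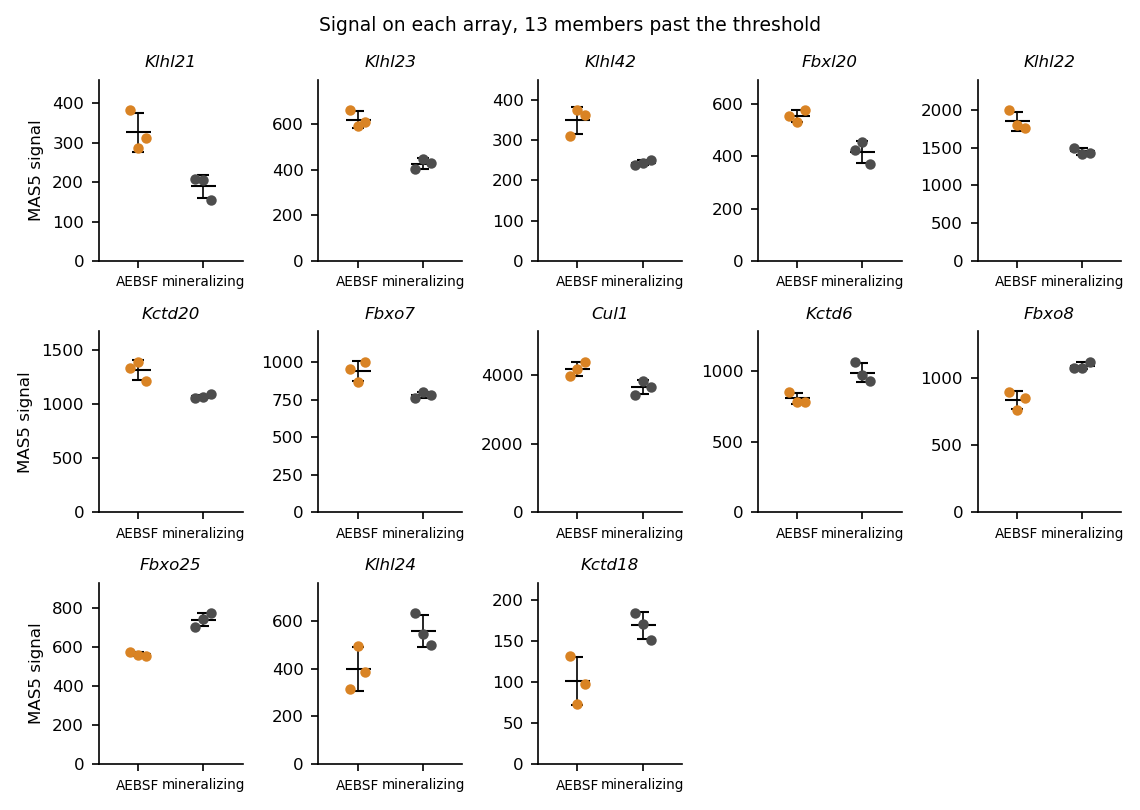
Points are MAS5 signals on each of the 3 AEBSF (orange, left) and 3 mineralizing (grey, right) arrays for the 13 genes that passed, with the mean and SD as bars; every vertical axis starts at 0. The groups do not overlap in any panel, Klhl21 and Kctd18 have the largest ratios of the 13, and Cul1, Klhl24 and Fbxo7 have the highest adjusted p-values.

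Of 44 tested F-box genes 2 rose, 2 fell and 40 did not pass (9.09% called, against 16.3% of all tested genes). In the WD40 class 0 of 8 tested genes passed in limma, and 1 had an unadjusted p under 0.05. Fbxw11 and Btrc are the 2 beta-TrCP proteins, which select beta-catenin and the NF-kappa-B inhibitor for destruction. Fbxw11 read 2531, 2564 and 2601 with AEBSF, against 2377, 2285 and 2289 in mineralizing cultures; the groups were apart by 1.11-fold and the adjusted p of 0.0849 in limma missed the threshold. Btrc averaged 431 ± 48.2 with AEBSF and 397 ± 43.7 in mineralizing cultures, and its 3 probe sets had log2 fold changes of 0.12, 0.24 and -0.09, none past the threshold.

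Fbxw2 stood at 1961 ± 115 with AEBSF and 1933 ± 109 without (log2 interval -0.12 to 0.16), and Fbxw8, the partner of Cul7, at 959 ± 143 and 985 ± 89.4 in AEBSF and mineralizing cultures (-0.28 to 0.19). Fbxw7, which selects cyclin E, Myc and Notch and was named after its values were seen, read 289, 298 and 296 with AEBSF, against 280, 214 and 238 in mineralizing cultures (0.28, limma adjusted p = 0.179). These groups did not overlap, by a small margin, and its second probe set gave 0.19.

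Among F-box genes with leucine-rich repeats 1 of 11 tested rose and 0 fell (9.09% called, against 16.3% of all tested genes). Fbxl20, which in mouse synapses selects the vesicle-priming protein Rim1, read 552, 532 and 576 with AEBSF, against 424, 456 and 371 in mineralizing cultures (1.33-fold; log2 fold change 0.41 ± 0.10 SE, adjusted p 0.0190 in limma). The groups were clearly apart in this probe set, but of its 4 other tested probe sets none passed, and 1 of them read 229, 243 and 245 with AEBSF, against 250, 257 and 287 in mineralizing cultures, with no overlap in the lower direction (-0.15). Averaged over all 5, the difference was 0.21 (limma adjusted p = 0.399). The call was also lost on dropping mineralizing array 1 or 3 (0.0554 and 0.0687) and with hybridization scaling (0.174).

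Fbxl5, the iron sensor that selects iron regulatory proteins, averaged 1636 ± 137 with AEBSF and 1740 ± 54.4 in mineralizing cultures (log2 interval -0.24 to 0.06). Fbxl14, which selects the transcription factor Snail, stood at 931 ± 32.4 and 984 ± 44.0 in AEBSF and mineralizing cultures (-0.23 to 0.07). Fbxl6 had 998, 892 and 889 with AEBSF, against 990, 1105 and 1008 in mineralizing cultures, with a single overlap between the groups (-0.16, limma adjusted p = 0.190).

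The F-box genes with other domains gave 1 rise and 2 falls among 25 tested (12.0% called, against 16.3% of all tested genes). Their median was 0.030. Fbxo8, an F-box protein with a Sec7 domain of the kind that acts on ARF GTPases, read 892, 764 and 847 with AEBSF, against 1072, 1075 and 1120 in mineralizing cultures. It fell 1.31-fold (log2 fold change -0.39 ± 0.07 SE, adjusted p 0.00659 in limma). Fbxo25, a close relative of the muscle F-box protein Fbxo32 (atrogin-1), read 574, 558 and 554 with AEBSF, against 703, 745 and 773 in mineralizing cultures, and fell 1.32-fold (-0.40 ± 0.08 SE, adjusted p 0.00688 in limma). In both genes the 3 AEBSF arrays lay far below the mineralizing ones, and each is measured by 1 probe set.

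Fbxo32 itself, named after its values were seen, read 110, 73.3 and 102 with AEBSF, against 158, 139 and 132 in mineralizing cultures. All AEBSF arrays were lower, but at this dim signal the difference missed the threshold (log2 fold change -0.61 ± 0.21 SE, adjusted p 0.0717 in limma). Fbxo7, mutated in a form of early parkinsonism in humans, read 953, 866 and 1002 with AEBSF, against 763, 802 and 782 in mineralizing cultures. It rose 1.20-fold (0.26 ± 0.08 SE, adjusted p 0.0395 in limma), and this was lost on dropping mineralizing array 1, 2 or 3 or AEBSF array 1 or 3 (0.133, 0.0878, 0.0974, 0.0962 and 0.0977) and with median centring or hybridization scaling (0.0785 and 0.526). The Fbxo7 call was also lost with no filter, a constant prior or the replicate number as a block (limma adjusted p = 0.0608, 0.102 and 0.0727).

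Fbxo33, which selects the RNA-binding protein YB-1 in human cells, did not pass by the probe set that stands for it. That probe set read 1197, 936 and 1190 with AEBSF, against 1203, 1293 and 1253 in mineralizing cultures (log2 fold change -0.18, limma adjusted p = 0.215). Its 2 others passed: they read 860, 731 and 864 with AEBSF, against 1071, 1086 and 1050 in mineralizing cultures (-0.39, limma adjusted p = 0.00846), and 676, 632 and 664 with AEBSF, against 888, 794 and 783 in mineralizing cultures (-0.32, 0.0210). AEBSF arrays were below mineralizing ones in all 3 probe sets, and their mean passed (-0.30, limma adjusted p = 0.0213). Fbxo3 stood at 1265 ± 91.2 with AEBSF and 1340 ± 107 without, with an interval of -0.25 to 0.09. Fbxo6, which binds N-glycans on proteins removed from the endoplasmic reticulum, stood at 1159 ± 72.3 and 1110 ± 51.1 in AEBSF and mineralizing cultures (-0.09 to 0.22).

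**Figure D5:**
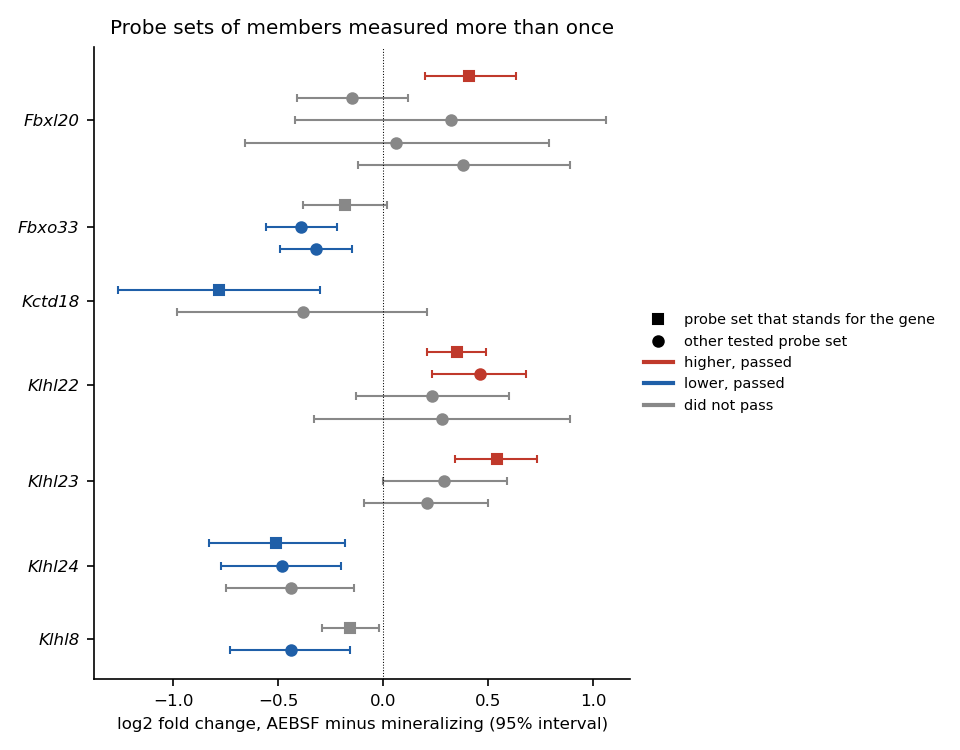
Log2 fold changes (AEBSF minus mineralizing) with 95% intervals are shown for each tested probe set of the 7 genes with several tested probe sets of which at least 1 passed; squares stand for the gene, circles are the other probe sets, red rose, blue fell and grey did not pass. The probe sets of Klhl22, Klhl24, Fbxo33 and Klhl8 lie on 1 side of 0, and those of Fbxl20 on both.

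At the level of probe sets, 131 of 173 were tested and 18 passed (13.7%, against 13.4% of all 18625 tested probe sets), 9 higher and 9 lower, against 5.99% of all tested probe sets higher and 7.41% lower. Of the 31 genes with several tested probe sets, 19 had all of them on 1 side of 0 and 12 on both sides. Of the 5 called genes with several tested probe sets, Klhl22 and Klhl24 had another that passed the same way, Klhl23, Fbxl20 and Kctd18 had none, and 0 had one that passed the opposite way. The other 8 called genes rest on 1 tested probe set each.

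The machinery shared by these ligases was described by a list of 33 genes for RING proteins, linkers, the NEDD8 pathway that activates cullins, the exchange factors Cand1 and Cand2, the COP9 signalosome that removes NEDD8, and partner enzymes. Of 31 tested, 3 rose, 1 fell and 27 did not pass (12.9% called, against 16.3% of all tested genes), with a median log2 fold change of 0.071. Cdc34, the ubiquitin-conjugating enzyme of Cul1 ligases, read 1811, 1970 and 1648 with AEBSF, against 1369, 1351 and 1452 in mineralizing cultures (1.30-fold; log2 fold change 0.38 ± 0.07 SE, adjusted p 0.00644 in limma). The groups were well apart here, and a second probe set also rose (0.44, limma adjusted p = 0.00522). The other tested one had overlapping groups (0.15, limma adjusted p = 0.741), and the mean of the 3 probe sets did not pass (0.32, 0.0803). Cand1, which exchanges adaptors on cullins, read 9155, 9547 and 9122 with AEBSF, against 7624, 7995 and 7966 in mineralizing cultures (1.18-fold, limma adjusted p = 0.0102). Its relative Cand2 read 918, 874 and 818 with AEBSF, against 713, 722 and 710 in mineralizing cultures (1.22-fold, limma adjusted p = 0.0268).

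Ddb1, the linker of Cul4 ligases, fell by the probe set that stands for it, while its 2 others, with log2 fold changes of -0.08 and -0.07, did not pass, and nor did the mean over all its probe sets (limma adjusted p = 0.487). That probe set read 4062, 3749 and 3827 with AEBSF, against 4547, 4388 and 4366 in mineralizing cultures (log2 fold change -0.19 ± 0.05 SE, adjusted p 0.0331 in limma). With hybridization scaling 0 of this list rose and 3 fell. The count of 4 was 2 on dropping mineralizing array 1 or 2 or AEBSF array 2; the Cand2 call was lost on dropping mineralizing array 1, 2 or 3 or AEBSF array 1 or 2 (limma adjusted p = 0.0870, 0.0761, 0.0768, 0.0846 and 0.0570), and the Ddb1 call on dropping mineralizing array 1, 2 or 3 or AEBSF array 2 or 3 (0.118, 0.0956, 0.0614, 0.0889 and 0.0684). By the probe sets that stand for the genes, 0 of 9 tested COP9 signalosome subunits passed in limma, against 16.3% of all tested genes. Of the 9, 1 had an unadjusted p under 0.05, and their log2 fold changes lay between -0.13 and 0.20. Another tested probe set of Cops7a, named after its values were seen, fell with no overlap between groups (-0.24, limma adjusted p = 0.0422). The Cops7a probe set that stands for the gene gave 0.07 and the remaining one -0.02. Other tested probe sets of Cops3 and Cops2 reached 0.32 and -0.21 and did not pass.

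A second list held 24 other adaptors, close relatives and Keap1 partners outside the symbol rule. Of 17 tested, 3 rose, 3 fell and 11 did not pass (35.3% called, against 16.3% of all tested genes, of which 7.09% were higher and 9.22% lower), with a median of -0.072. With 1 array left out the count of 6 was between 2 and 6, and by the mean of probe sets it was 3. This list was chosen with earlier results of these data known, so its share is not independent of them. Skp2 was not analysed here. Cks1b, named after its values were seen, is among the 11 that did not pass (log2 fold change -0.11, limma adjusted p = 0.171). Its other tested probe set fell (-0.27, limma adjusted p = 0.0311). Dtl, a Cul4 receptor that selects the replication licensing factor Cdt1, read 3594, 4183 and 4086 with AEBSF, against 2952, 3183 and 3043 in mineralizing cultures, and rose 1.29-fold (limma adjusted p = 0.00418). Cop1, a Cul4-linked ligase for Jun known from human cells, rose 1.18-fold, to 2361 ± 71.3 with AEBSF against 2005 ± 14.9 in mineralizing cultures (limma adjusted p = 0.0154), and its 2 other probe sets gave -0.06 and -0.00. Sqstm1, the autophagy receptor p62 that binds Keap1, rose 1.15-fold (limma adjusted p = 0.0242), as did another of its probe sets (log2 fold change 0.30, 0.0204 in limma). The other tested probe set of Sqstm1 did not pass (0.07, limma adjusted p = 0.850). The mean over all 4 of its probe sets was -0.00 (limma adjusted p = 0.989). That mean takes in a dim probe set below the filter, at -0.59, while the tested ones all had positive log2 fold changes. The mean of the Cop1 probe sets did not pass either (limma adjusted p = 0.837). That mean weighs each probe set alike, and the 2 others of Cop1 were dim, at means of 108 and 110 with AEBSF.

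The falls were Rhobtb3, an atypical GTPase-related protein with BTB domains, Enc1, a BTB-Kelch protein, and Crbn, the Cul4 receptor that binds thalidomide. Rhobtb3 read 776, 776 and 884 with AEBSF, against 1060, 1004 and 965 in mineralizing cultures (1.25-fold lower, limma adjusted p = 0.0203). Enc1 averaged 2149 ± 85.3 with AEBSF and 2604 ± 126 in mineralizing cultures (1.21-fold lower, 0.0115), and Crbn 1141 ± 90.6 with AEBSF and 1368 ± 39.4 in mineralizing cultures (1.20-fold lower, 0.0296). The mean over all probe sets was near 0 for Rhobtb3 and Enc1 (log2 fold change -0.03 and -0.04). For Enc1 that mean takes in a dim probe set below the filter, at 0.21. The mean weighs each probe set alike, whatever its signal. The other probe set of Rhobtb3 averaged 121 with AEBSF and 103 in mineralizing cultures, against 812 and 1010 for the called one. Those of Enc1 above the filter averaged 92.5 and 248 with AEBSF, against 2149 for the called one. The other tested probe sets, at 0.26 for Rhobtb3 and -0.10 and -0.00 for Enc1, did not pass, so each call rests on 1 probe set. With hybridization scaling 0 of this list rose, and with a constant prior 0 of either list passed in limma. The list's count of 6 was 2 on dropping mineralizing array 1 or 2 and 3 on dropping AEBSF array 1. Calls were lost for Cop1 on dropping mineralizing array 1 or 2 (limma adjusted p = 0.0622 and 0.0559), for Rhobtb3 on dropping mineralizing array 1 or 2 or AEBSF array 1 or 2 (0.0927, 0.0653, 0.0623 and 0.0547), for Crbn on dropping mineralizing array 1, 2 or 3 or AEBSF array 1 or 2 (0.111, 0.0933, 0.0585, 0.0911 and 0.0724), and for Sqstm1 on dropping mineralizing array 1 or 2 or AEBSF array 1 or 2 (0.0815, 0.0978, 0.0674 and 0.0629).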

How the data were processed

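The authors deposited 1 intensity per probe set and array for 31099 probe sets, namely the MAS5 signal of the GCOS software, per the submitters' processing notes, which give no version. Trimmed means (2% off each end) were 500.1 to 500.2 on every array, which removes any overall shift in RNA amount. Of 31042 probe sets other than controls, 20826 had exactly 1 symbol in the platform annotation, 436 had several and 9780 were unnamed here; symbols were updated through Entrez identifiers (20758 matched) to RefSeq GRCr8.

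Log2 signals, with no constant added, were fitted in R 4.3.3 with limma 3.58.1 (lmFit, eBayes with a trended prior), and p-values were adjusted by Benjamini-Hochberg over 18625 tested probe sets at a threshold of 0.05. The number of arrays, 3 per group, limits precision. The fit was tested on simulated data. Genes with full values follow a rule: every called member, up to 3 uncalled members with the highest signal in each family, all cullins, Keap1, Btrc, Skp2 and Nfe2l2, and up to 6 called genes of each pathway list (49 genes, 23 past the threshold); exceptions are marked. Members and lists were chosen with earlier results of these data known.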

Additional observations from a re-analysis of the deposited data

How the results depend on the processing

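Alternatives were 3 other scalings, a constant of 16 or 64 added to the signal, no filter or one at the 60th percentile, a constant or robust variance prior, averaging each gene's probe sets, the replicate block, and leaving out each array. Leaving out 1 array gave 1203 to 2257 tested probe sets past the threshold (489 to 997 higher, 714 to 1260 lower), 5 to 11 members (3 to 7 higher, 2 to 4 lower), 2 to 4 core and regulator genes (2 to 4 higher, 0 to 1 lower), 2 to 6 other adaptors and partners (1 to 3 higher, 1 to 3 lower), and 0 to 1 called members with a second probe set that passed, against 2 with all arrays. With a constant prior the counts were 885 probe sets (285 higher, 600 lower), 5 members (3 higher, 2 lower) and, in limma, 0 in both lists and 0 for probe set agreement. Scaled to hybridization controls, 119 probe sets were higher and 2457 lower, 2 members higher and 10 lower, 0 core genes higher and 3 lower, and 0 other adaptors higher. With no filter 710 probe sets were higher, 3 members lower, 0 core genes lower, and 1 member had a second probe set. Median centring gave 0 core genes lower; quantile normalization and the 60th percentile filter gave 5 higher. The mean of probe sets, with those below the filter included, gave 0 core genes lower and 3 other adaptors (1 higher). It turned Sqstm1 to -0.00 (limma adjusted p = 0.989) against 0.20. The cause of these changes was not tested. Same-numbered cultures did not deviate together (correlations 0.011, -0.119 and -0.036), so the numbers were not taken as pairs; with the replicate block 10 members, 2 core genes (0 lower) and 1 called member with a second probe set passed. Over the named genes 678 values stayed on the same side of the threshold, 112 dropped out, 5 came in and 1 reversed. Klhl21 and Kctd18 were not tested by the mean of probe sets, nor Kctd18 above the 60th percentile. Detection calls were not used here, so dim signals such as that of Kctd18 were judged by the filter alone.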
